A study of Mus musculus with 18 samples.

Results

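The transcripts described here are those of glycolysis, of the pentose phosphate pathway and of genes induced by hypoxia, in CD8+ T cells exposed to single cytokines. The list named 34 genes. They were 9 of upper glycolysis, 7 of lower glycolysis, 2 regulators of glycolysis, 6 of the pentose phosphate pathway and 10 hypoxia targets. It was applied by gene symbol, but it was chosen with earlier results of these data known. Shares of the list set beside those of all genes are therefore a description and no independent test. For 30 of the 34 a probe set annotated to that symbol alone was measured, among 18194 genes in all. Gpi1, Eno1 and G6pdx had no such probe set, Bnip3l had only probe sets shared with Bnip3l-ps, and these 4 were not analysed here.

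The cells were splenic CD8+ T cells of male OT-I mice, whose transgenic T cell receptor recognises an ovalbumin peptide. They were activated with peptide-pulsed antigen presenting cells, purified again, and cultured for 24 hours in complete RPMI medium, alone (media control) or with 1 recombinant murine cytokine at 100 ng/ml, namely IL-21, IL-15, IL-7, IL-4 or IL-2. Each of the 6 groups had 3 biological replicates, and RNA of the 18 samples was hybridised to Affymetrix mouse arrays. All groups, media control included, had been activated with antigen, so a difference from media control is a difference between activated cells with and without the cytokine for that time. Whether cultures of 1 replicate number came from 1 animal or from pooled spleens was not given in the sources used here, and the age of the mice was not given either.

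Glycolysis converts glucose to pyruvate in the cytosol, and lactate dehydrogenase then turns pyruvate into lactate. The pentose phosphate pathway branches off after the first step and yields NADPH and ribose phosphate for nucleotides. Activated T cells raise glycolysis even with oxygen present, and the hypoxia-inducible factor (HIF) and MYC are known to induce many of its enzymes. HIF is also known to induce genes of mitophagy, collagen modification and angiogenesis, which low oxygen induces in most tissues.

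Values are log2 levels per probe set after renewed quantile normalization of the 18 arrays, which gives every array the same distribution. A change is the difference of 2 group means on that scale, with its standard error (SE) from a limma fit over all 18 arrays, and a gene rose or fell where its p, adjusted by the Benjamini-Hochberg method over all 18194 genes, was under 0.05. Arrays with the same replicate number deviated together, so counts from a second fit with that number as a block are given too. Background was set at 7.44, which 95 percent of 31 genes specific to other tissues did not exceed. Where every array of a group lay below background, as those of media control and IL-15 did for P4ha2 and Vegfa, the difference is given as at least the fold between the brighter group and the background level, and no fold is given where the brighter mean was not above it. Signals of different probe sets depend on their probes, and levels are compared for 1 gene between groups only. Array 1, 2 or 3 of a group is that of its replicate 1, 2 or 3, and where 4 or 5 values are listed without names the cytokines come in numerical order.

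The arrays were deposited on unequal scales. In replicate 3, the IL-2, IL-15 and media control arrays had medians of 4.47 to 4.52, whereas the other 15 were at 5.76 to 5.84. RNA came from RNeasy columns for replicates 1 and 2, and from TRIzol with Direct-zol for replicate 3. The actin signal at the 3' end exceeded that at the 5' end by 0.59 to 0.68 in these 3 arrays, while the excess was 0.37 to 0.39 for the remaining TRIzol arrays and 0.19 to 0.31 for RNeasy. The 9 measured CD8 T cell markers were all above background in every group. Of the 9 B cell markers none was above background on average, and Ms4a1, Pax5 and Cd79a had means of 5.30, 5.38 and 5.41. With IL-2 the response genes Il2ra and Cish rose by 3.14 (SE 0.22) and 3.30 (SE 0.40), each higher in 3 of 3 replicates.

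Many genes of the list rose with 4 of the 5 cytokines. With IL-2, 13 of the 30 rose, where 7.83% of all genes did, and with IL-4, 14 rose against 3.98% of all genes. With IL-7, 8 rose against 0.934%, and with IL-21, 9 rose against 3.39%. With IL-15 none rose, where 0.0% of all genes did, and 9 members were higher at an unadjusted p under 0.05 in limma. No member fell with any cytokine, where 8.0%, 5.1%, 0.747%, 0.0% and 3.29% of all genes fell with the 5 cytokines. None was lower at an unadjusted p under 0.05 in limma without the block either. With the block 1 was lower at that unadjusted p with each of IL-4, IL-7 and IL-21. The median change over the 30 members was 0.64 under IL-2, 0.64 under IL-4, 0.60 under IL-7, 0.36 under IL-15 and 0.64 under IL-21, beside medians over all genes of 0.01, 0.00, -0.02, -0.01 and -0.01.

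With the replicate number as a block the members that rose numbered 25 under IL-2 (15.5% of all genes rose in that fit), 24 under IL-4 (12.9%), 24 under IL-7 (8.34%), 0 under IL-15 (0.0%) and 22 under IL-21 (10.6%). On the values as deposited, with the arrays on unequal scales, they numbered 1, 0, 0, 0 and 1. Without the 3 arrays of lower scale they numbered 11, 12, 7, 0 and 7, and within the RNeasy arrays, with the block, 26, 25, 25, 0 and 23. Single arrays, left out of the fit without the block, moved the counts too. With IL-2, the calls of Pgk1, Pkm, P4ha1 and Mif were each lost without media control array 3, IL-2 array 1 or IL-2 array 2. With IL-4, 9 rose without media control array 3 or IL-4 array 2. With IL-7, 4 rose without media control array 2, 3 without media control array 3 and 1 without IL-7 array 1 or 2. With IL-21, 5 rose without IL-21 array 1. For the values as deposited and the fits that left arrays out, shares of all genes are not given here. These counts therefore do not tell a change of the members from a change in how many genes passed at all.

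**Figure D1:**
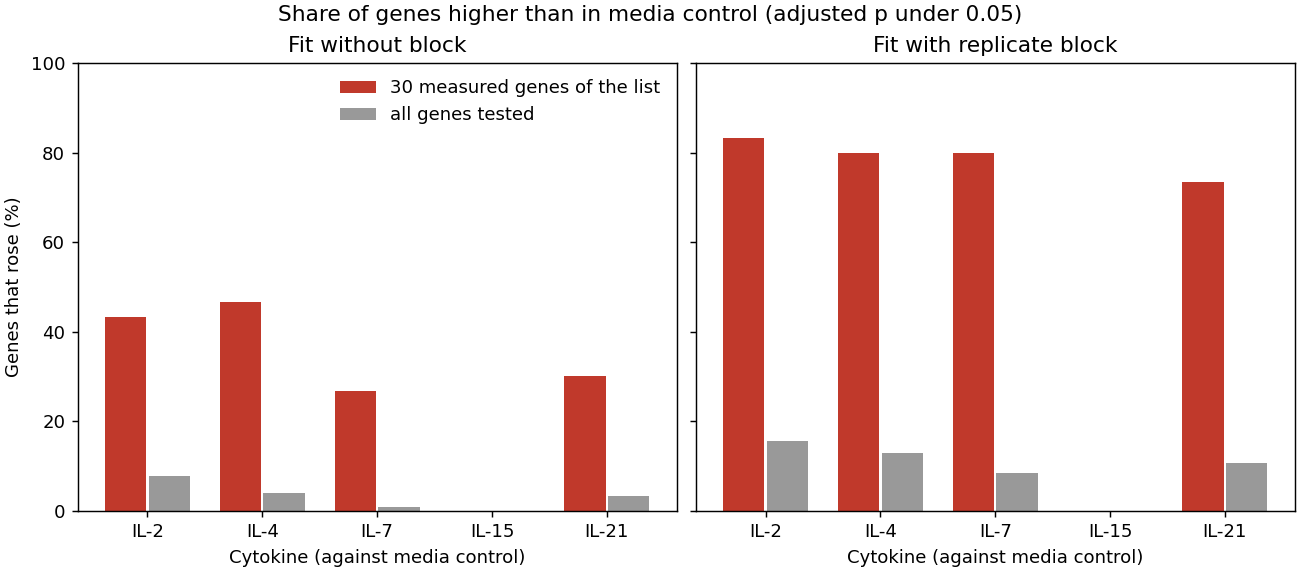
Share of genes higher than in media control (vertical axis, percent, adjusted p under 0.05 in limma) for each cytokine (horizontal axis), without (first panel) and with (second panel) the replicate number as a block. The red bars are the 30 measured genes of the list, of which 13, 14, 8, 0 and 9 rose without the block and 25, 24, 24, 0 and 22 with it, and the grey bars are the 18194 genes tested.

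**Figure D2:**
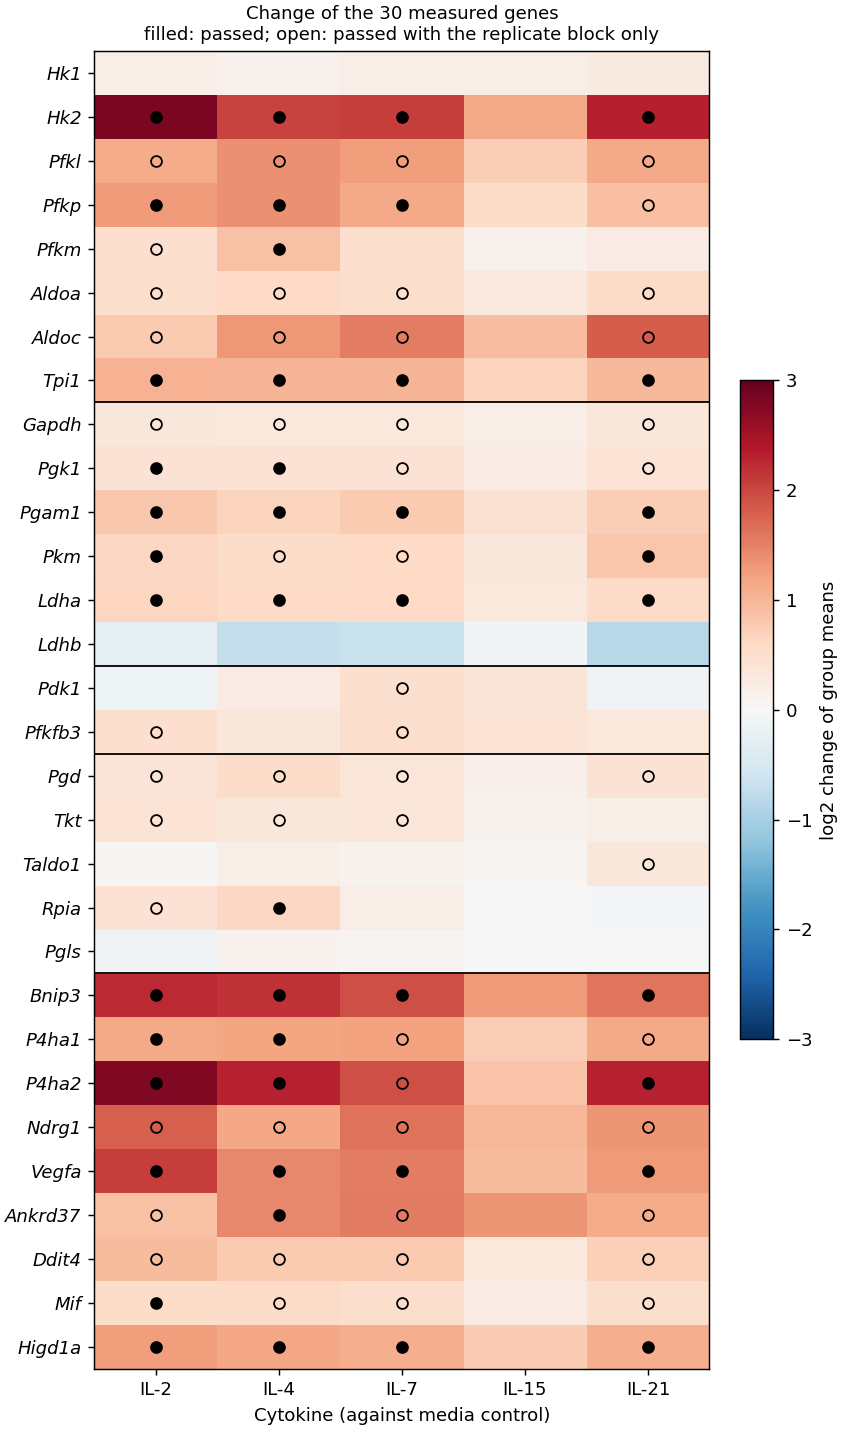
Change of each measured gene (rows, in the order upper glycolysis, lower glycolysis, regulators, pentose phosphate, hypoxia targets) with each cytokine (columns) against media control, as the log2 difference of group means (colour scale). Filled circles mark changes that passed in limma and open circles those that passed with the replicate block only. The darkest cells are Hk2 and P4ha2 under IL-2, at measured differences of 2.82 and 2.77 (the latter from a level below background), and no cell of the IL-15 column has a circle.

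Hexokinase phosphorylates glucose and so traps it in the cell, and Hk2 is its inducible isozyme. The 3 arrays of media control gave Hk2 levels of 8.72, 8.54 and 7.83, those of IL-2 11.39, 11.44 and 10.71, and those of IL-21 10.85, 10.58 and 10.68. With IL-4 the levels were 10.33, 10.62 and 10.25, with IL-7 10.59, 10.86 and 9.84, and with IL-15 9.58, 9.16 and 9.75. Every array of every cytokine lay above every control array, and the IL-15 arrays lay below all arrays of the other 4 cytokines. Hk2 rose 7.05-fold with IL-2 (log2 change 2.82, SE 0.28, adjusted p = 1.36e-05), 5.08-fold with IL-21 (2.34, adjusted p = 8.15e-05), 4.18-fold with IL-7 (2.06, adjusted p = 0.0029) and 4.11-fold with IL-4 (2.04, adjusted p = 2.76e-04). With IL-15 the change of 1.14 (95% interval 0.54 to 1.73) did not pass (adjusted p = 1, and 0.249 with the block). These 4 calls held without any single array.

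Hk1, the constitutive hexokinase of most tissues, stayed between 10.60 and 10.74 on the control arrays and between 10.33 and 11.19 on all cytokine arrays. Its changes were 0.13 to 0.28 with the 5 cytokines, and none passed in either fit. With IL-2 the 95% interval for Hk1 was -0.28 to 0.70 and that for Hk2 was 2.23 to 3.41, so the changes of the 2 isozymes were unequal. With IL-15 the interval for Hk1, -0.30 to 0.69, overlapped that for Hk2.

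Phosphofructokinase commits the sugar to glycolysis, and its liver (Pfkl), platelet (Pfkp) and muscle (Pfkm) type subunits are separate genes. Pfkp was at 11.38, 11.41 and 10.67 in media control, at 12.49, 12.85 and 11.92 under IL-2, at 12.46, 12.78 and 12.32 under IL-4, and at 12.40, 12.57 and 11.93 under IL-7. All of these cytokine arrays were above all control arrays. The changes were 1.27 under IL-2 (SE 0.27, adjusted p = 0.00346), 1.37 under IL-4 (adjusted p = 0.00388) and 1.15 under IL-7 (adjusted p = 0.0403), while that with IL-21 was 0.89 and passed only with the block (adjusted p = 0.0585, and 1.99e-04 with it). Pfkm rose with IL-4, by 0.87 (SE 0.23, adjusted p = 0.0279), and its change with IL-2 was 0.50 (adjusted p = 0.188, and 0.0346 with the block). Whether the response of Pfkm differed between IL-4 and IL-2 was tested directly, and it did not pass in either fit. Pfkl varied widely among the control arrays, at 10.06, 9.83 and 8.12, and its changes of 1.12 to 1.37 under IL-2, IL-4, IL-7 and IL-21 passed only with the block (adjusted p = 9.49e-05, 4.16e-05, 6.58e-04 and 2.3e-04). Pfkp with IL-7 kept its call without any one of 9 arrays and lost it without media control array 2 or 3, IL-2 array 1, IL-4 array 1 or 3, IL-7 array 1 or 2, or IL-21 array 1 or 2 (adjusted p 0.0531 to 0.181). Pfkm with IL-4 lost it without media control array 1, 2 or 3 or IL-4 array 2 (adjusted p = 0.0657, 0.0883, 0.0586 and 0.135).

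In upper glycolysis as a whole 3 of the 8 measured genes rose with IL-2, 4 under IL-4, 3 under IL-7, 0 under IL-15 and 2 under IL-21, and 7, 7, 6, 0 and 6 with the block.

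Aldolase splits the sugar bisphosphate into triose phosphates, which triosephosphate isomerase (Tpi1) interconverts. Tpi1 was at 13.09, 12.82 and 12.02 in media control and between 13.43 and 13.87 on the 12 arrays of IL-2, IL-4, IL-7 and IL-21, above all control arrays. It rose by 1.05 under IL-2, 1.02 under IL-4, 1.01 under IL-7 and 0.97 under IL-21 (SE 0.22, adjusted p = 0.00333, 0.00743, 0.029 and 0.0112), close to a doubling with each. The control arrays lay further apart than those of any cytokine, with replicate 3 the lowest. Aldoa, the main aldolase of blood cells, had changes of 0.53 to 0.61 with the same 4 cytokines and Aldoc, the isozyme best known from brain, changes of 0.78 to 1.82, and both passed only with the block. The 4 other Aldoa probe sets gave changes of 0.25 to 0.62 under IL-2 and 0.015 to 0.66 under IL-4. Under IL-7 these gave 0.016 to 0.62 and under IL-21 -0.021 to 0.61, so the size of the Aldoa change depended on the probe set. Aldoc with IL-21 was at 11.18, 12.20 and 10.29 against 9.28, 10.33 and 8.58, higher by 1.90, 1.86 and 1.71 in replicates 1, 2 and 3 (adjusted p = 0.119, and 1.08e-05 with the block). The groups overlapped because the replicates lay far apart in both. Tpi1 lost its call with IL-7 without media control array 2 or 3 or IL-7 array 1 or 2 (adjusted p = 0.0752, 0.0874, 0.134 and 0.122) and with IL-21 without IL-21 array 1 (adjusted p = 0.0592).

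**Figure D3:**
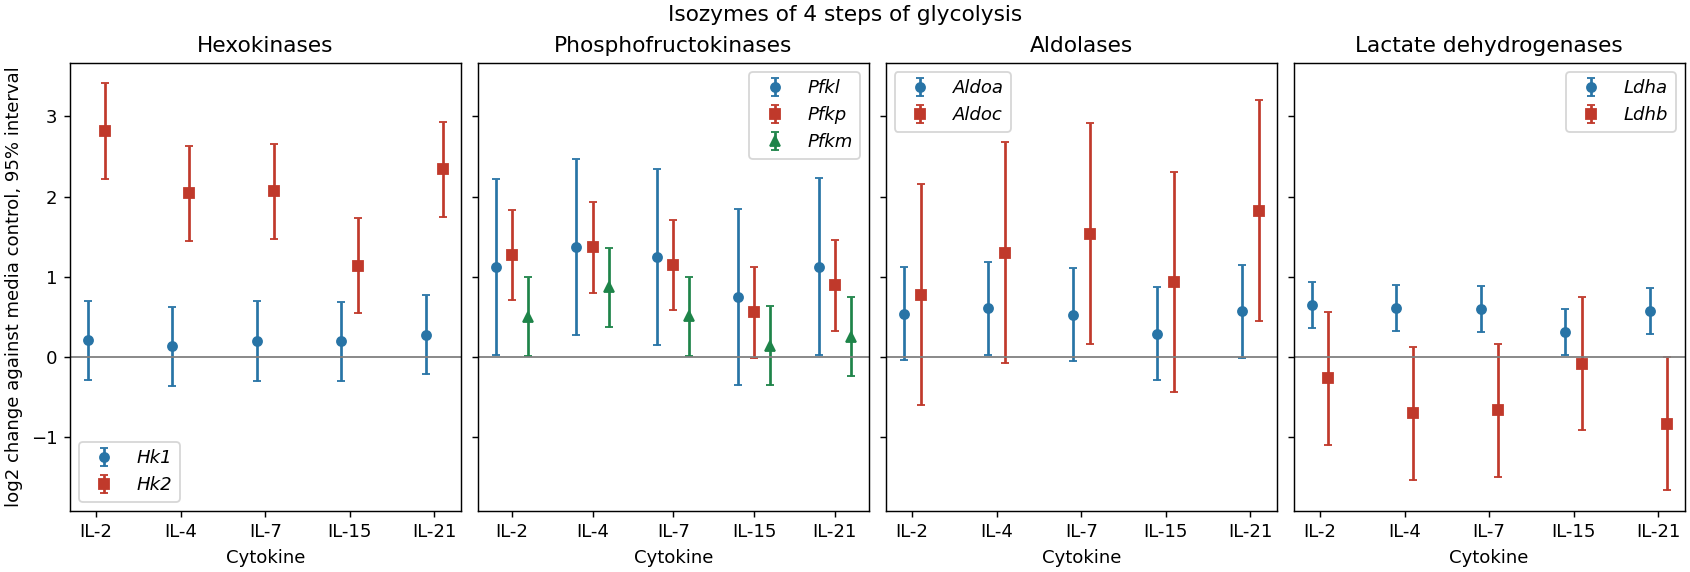
Log2 change against media control (vertical axis) with each cytokine (horizontal axis) for the isozymes of hexokinase, phosphofructokinase, aldolase and lactate dehydrogenase. Points are differences of group means of 3 arrays and bars are 95% intervals from limma. Hk2 lies at 1.14 to 2.82 and Hk1 at 0.13 to 0.28, and Ldha lies above 0 with each cytokine.

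The lower steps of glycolysis make ATP and end in pyruvate and lactate. Of the 6 measured genes, 4 rose with IL-2, 3 under IL-4, 2 under IL-7, 0 under IL-15 and 3 under IL-21, and 5 rose with each of the 4 with the block. Phosphoglycerate mutase (Pgam1) rose with each of the 4, at 11.91, 11.66 and 11.52 in media control and between 12.19 and 12.66 on the arrays of these cytokines, with no overlap. Its changes were 0.81 under IL-2, 0.66 under IL-4, 0.78 under IL-7 and 0.74 under IL-21 (SE 0.14, adjusted p = 0.00102, 0.00813, 0.0135 and 0.00453). Lactate dehydrogenase A (Ldha), the subunit that favours lactate formation, was at 13.83, 13.52 and 13.30 in media control. It was at 14.28, 14.26 and 14.06 under IL-2, at 14.21, 14.21 and 14.06 under IL-4, at 14.24, 14.18 and 14.03 under IL-7, and at 14.23, 14.06 and 14.07 under IL-21. The lowest of these 12 arrays was above the highest control array, and the changes were 0.57 to 0.65 (SE 0.14, adjusted p = 0.00357, 0.00976, 0.0358 and 0.017 for IL-2, IL-4, IL-7 and IL-21).

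Pyruvate kinase (Pkm) makes pyruvate, and it was at 12.98, 12.80 and 12.54 in media control, at 13.40, 13.58 and 13.20 under IL-2 and at 13.62, 13.75 and 13.42 under IL-21. It rose by 0.83 under IL-21 (SE 0.17, adjusted p = 0.00778) and by 0.62 under IL-2 (adjusted p = 0.0213), and had changes of 0.55 under IL-4 and 0.60 under IL-7 that passed with the block (adjusted p = 6.77e-04 and 0.00142). Phosphoglycerate kinase (Pgk1), the first ATP-making step, rose by 0.44 under IL-2 and by 0.44 under IL-4 (SE 0.13, adjusted p = 0.0309 and 0.0463), and its changes of 0.44 under IL-7 and 0.41 under IL-21 passed with the block. Gapdh, a gene often used as a constant reference, had changes of 0.33 under IL-2, 0.33 under IL-4, 0.31 under IL-7 and 0.34 under IL-21 (SE 0.11), which passed with the block only (adjusted p = 0.00235, 0.00361, 0.00957 and 0.00378). Its levels ran from 14.03 to 14.57, and the 2 other Gapdh probe sets gave changes of 0.31 to 0.37 for these 4 cytokines.

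Ldhb, the lactate dehydrogenase subunit that favours pyruvate, was the one lower-glycolysis gene with negative changes, at -0.27 under IL-2, -0.70 under IL-4, -0.67 under IL-7, -0.08 under IL-15 and -0.83 under IL-21, and none passed in either fit. It was at 7.85 and 8.03 on control replicates 1 and 2 and at 9.20 on replicate 3, and replicate 3 of IL-2 and IL-15 was at 9.01 and 9.07, while replicate 3 of IL-4, IL-7 and IL-21 was at 7.75, 7.53 and 7.61. The 3 high values were thus those of the 3 arrays of lower scale. Without replicate 3 Ldhb was lower with IL-2 (-0.31, adjusted p = 0.0427), IL-4 (-0.33, adjusted p = 0.0497) and IL-21 (-0.45, adjusted p = 0.0173). With the mean of all its probe sets it was lower with IL-21 only (-0.45, adjusted p = 0.0341).

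In lower glycolysis several calls of the fit without the block were lost when a single array was left out. Leaving out an array of a group outside the comparison does not alter the change itself. It acts on the spread that all groups share in the fit, and so on the SE, the p and the adjusted p. Such a loss shows a call near the threshold. Pgam1 lost its call with IL-7 without media control array 2 or 3 or IL-7 array 1 or 2 (adjusted p = 0.0688, 0.0733, 0.079 and 0.076). Ldha lost it with IL-4 without media control array 3 (adjusted p = 0.051) and with IL-21 without media control array 2 or 3 or IL-21 array 1 (adjusted p = 0.0652, 0.0898 and 0.0866). With IL-7 it kept the call without any one of 9 arrays and lost it without media control array 2 or 3, IL-2 array 1, IL-4 array 1 or 2, IL-7 array 1, 2 or 3, or IL-21 array 2 (adjusted p 0.0503 to 0.186). Pkm lost it with IL-2 without media control array 2 or 3 or IL-2 array 1 or 2 (adjusted p = 0.0601, 0.0925, 0.0657 and 0.0944). Pgk1 lost it with IL-2 without media control array 3 or IL-2 array 1 or 2 (adjusted p = 0.143, 0.0865 and 0.123), and with IL-4 it kept the call only without media control array 1, IL-2 array 3, IL-7 array 3, IL-15 array 3 or IL-21 array 3 (adjusted p up to 0.203 without another array).

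The 2 regulators of glycolysis did not rise in the fit without the block. Pdk1, which inactivates pyruvate dehydrogenase and is itself a hypoxia target, was at 11.13, 11.59 and 10.28 in media control and at 10.83, 11.49 and 10.31 under IL-2, and these groups overlapped. Its changes were -0.12 under IL-2, 0.24 under IL-4, 0.47 under IL-7, 0.39 under IL-15 and -0.10 under IL-21 (SE 0.39), and the one with IL-7 passed with the block (adjusted p = 0.0305). The 2 other Pdk1 probe sets above background gave -0.12 to 0.20 under IL-2, 0.33 to 0.56 under IL-7 and -0.31 to 0.16 under IL-21. With the block Pdk1 was lower with IL-2 than with IL-7 (-0.60, adjusted p = 0.0115) and than with IL-15 (-0.51, adjusted p = 0.0142). Pfkfb3, which makes the allosteric activator of phosphofructokinase, had changes of 0.31 to 0.52 and passed with IL-2 and IL-7 with the block (adjusted p = 0.0087 and 0.0147).

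Over the 5 pentose phosphate genes the median change was 0.39 under IL-2, 0.35 under IL-4, 0.21 under IL-7, 0.07 under IL-15 and 0.18 under IL-21, beside 0.91, 1.16, 1.08, 0.62 and 0.93 for upper glycolysis. Of the 5 measured, 1 rose with IL-4 and none with the other 4 cytokines, and with the block 3, 3, 2, 0 and 2 rose. Rpia, which makes ribose phosphate, was at 10.06, 9.80 and 10.34 in media control and at 10.65, 10.87 and 10.57 under IL-4, with no overlap, and rose by 0.63 (SE 0.15, adjusted p = 0.0144). Rpia with IL-4 was also higher than with IL-15, by 0.64 (adjusted p = 0.0253), and than with IL-21, by 0.66 (adjusted p = 0.0177). With IL-2 it had a change of 0.42 (adjusted p = 0.0701, and 0.0357 with the block), with 0.50 and 0.79 in replicates 1 and 2 and -0.01 in replicate 3. Pgd, the second NADPH-making dehydrogenase, had changes of 0.37 to 0.55 under IL-2, IL-4, IL-7 and IL-21 that passed only with the block, and transketolase (Tkt) changes of 0.41 under IL-2, 0.35 under IL-4 and 0.35 under IL-7 likewise. Transaldolase (Taldo1) had a change of 0.34 under IL-21 that passed with the block (adjusted p = 0.0086) and of 0.03 under IL-2 that did not. The lactonase gene Pgls had changes of -0.11 to 0.10, and none passed. Against media control, the call of Rpia with IL-4 was lost without media control array 2 or IL-4 array 2 (adjusted p = 0.088 and 0.074), its difference from IL-15 without IL-4 array 1 or 2 or IL-15 array 2 (adjusted p = 0.0703, 0.143 and 0.161), and its difference from IL-21 without IL-4 array 1 or 2 or IL-21 array 2 or 3 (adjusted p = 0.0528, 0.105, 0.0697 and 0.0663).

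Of the 9 measured hypoxia targets, 6 rose with IL-2, 6 under IL-4, 3 under IL-7, 0 under IL-15 and 4 under IL-21, and with the block all 9 rose with each of these but IL-15. Bnip3 encodes a mitochondrial outer membrane protein of mitophagy. It was at 11.47, 11.54 and 9.91 in media control, at 13.17, 13.58 and 12.88 under IL-2, at 12.90, 13.44 and 13.07 under IL-4, and at 13.06, 13.27 and 12.41 under IL-7. With IL-21 it was at 12.79, 12.78 and 12.17 and with IL-15 at 12.52, 12.14 and 12.09. All 15 cytokine arrays lay above all control arrays, of which replicate 3 was far below the other two. Bnip3 rose by 2.24 under IL-2, 2.16 under IL-4, 1.94 under IL-7 and 1.60 under IL-21 (SE 0.36, adjusted p = 5.45e-04, 0.00132, 0.0142 and 0.0121). With IL-15 the change of 1.28 had a 95% interval of 0.51 to 2.05 (adjusted p = 1, and 0.18 with the block). Without media control array 3 the change with IL-2 was 1.70, and its call held without any single array.

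The collagen prolyl hydroxylase subunits P4ha1 and P4ha2 modify procollagen. P4ha2 was at 6.00, 5.8 and 5.28 in media control, at 8.36, 8.87 and 8.17 under IL-2, at 8.04, 8.38 and 7.61 under IL-4, and at 8.52, 8.40 and 7.09 under IL-21. With IL-7 it was at 8.27, 8.27 and 6.33 and with IL-15 at 7.38, 6.27 and 6.02. No cytokine array overlapped with the control arrays, all of which were below background, as were the IL-15 arrays and replicate 3 of IL-7 and IL-21. P4ha2 rose at least 2.04-fold with IL-2, 1.49-fold with IL-4 and 1.48-fold with IL-21 (adjusted p = 0.00124, 0.00797 and 0.00936), and its difference under IL-7, of at least 1.13-fold, passed with the block (adjusted p = 0.0675, and 0.00139 with it). P4ha1 rose by 1.13 under IL-2 and by 1.19 under IL-4 (SE 0.34, adjusted p = 0.0326 and 0.0396), and its changes of 1.22 under IL-7 and 1.14 under IL-21 passed with the block.

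Vegfa encodes the vascular endothelial growth factor A. Its arrays were at 5.96, 6.67 and 5.35 in media control, at 8.0, 8.43 and 7.77 under IL-2, at 7.26, 7.98 and 7.34 under IL-7, and at 7.0, 7.72 and 7.57 under IL-4. With IL-21 they were at 7.18, 7.31 and 7.30 and with IL-15 at 6.60, 7.09 and 7.13. The IL-2 arrays alone were all above background, and the IL-15 arrays overlapped with the control arrays. Vegfa rose at least 1.54-fold with IL-2 and 1.06-fold with IL-7 (adjusted p = 2.3e-04 and 0.0175). It also rose with IL-4 and IL-21 (adjusted p = 0.006 and 0.0151), where no fold is given because the means of 7.43 and 7.26 were not above background. Higd1a, a mitochondrial protein of the respiratory chain, was at 12.14, 11.76 and 11.42 in media control, between 12.60 and 13.23 on the arrays of IL-2, IL-4, IL-7 and IL-21, and at 12.78, 12.27 and 12.56 under IL-15. It rose by 1.26 under IL-2, 1.16 under IL-4, 1.09 under IL-7 and 1.08 under IL-21 (SE 0.18, adjusted p = 2.38e-04, 8.04e-04, 0.00909 and 0.00155), and its IL-15 arrays, at a change of 0.77, were above all control arrays too.

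Ankrd37, an ankyrin repeat gene induced by HIF, was at 8.82, 8.91 and 8.92 in media control and at 9.55, 9.83 and 11.21 under IL-15. Its change with IL-15 was 1.32 (95% interval 0.44 to 2.19) and that with IL-2 was 0.88, and neither passed without the block (adjusted p = 1 and 0.198, and 0.158 and 0.0124 with it). It rose with IL-4, by 1.44 (SE 0.41, adjusted p = 0.0392), where the arrays were at 9.55, 10.39 and 11.02. In each of the 5 cytokine groups replicate 3 was the highest, while the control arrays lay close together. Mif, a cytokine-like inflammatory factor that HIF induces, rose by 0.56 under IL-2 (SE 0.18, adjusted p = 0.0454), and its changes of 0.52 to 0.59 under IL-4, IL-7 and IL-21 passed with the block. Ndrg1, a stress-response gene, and Ddit4, the mTORC1 inhibitor REDD1, had changes of 1.17 to 1.79 and of 0.70 to 0.95 with the 4 cytokines, all of which passed only with the block. The 3 other Ndrg1 probe sets above background gave 0.69 to 1.90 under IL-2 and 0.41 to 1.06 under IL-4. Under IL-7 these gave 0.56 to 1.45 and under IL-21 0.50 to 1.13. Ddit4 was at 9.83, 11.28 and 9.84 in media control and at 10.87, 12.49 and 10.43 under IL-2, and in each group replicate 2 was the highest.

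Several hypoxia target calls of the fit without the block were likewise lost when a single array was left out. P4ha1 lost its call with IL-2 without media control array 3 or IL-2 array 1 or 2 (adjusted p = 0.151, 0.058 and 0.165), and with IL-4 without media control array 3, IL-4 array 1, 2 or 3, IL-7 array 1, IL-15 array 1 or IL-21 array 1 (adjusted p 0.0525 to 0.176). Ankrd37 lost it with IL-4 without media control array 1, 2 or 3, IL-4 array 2 or 3, IL-7 array 2 or IL-21 array 1 (adjusted p 0.0512 to 0.177). Mif lost it with IL-2 when any one of 12 arrays was left out, and kept it without media control array 1, IL-2 array 3, IL-4 array 3, IL-7 array 3 or IL-15 array 1 or 3 (adjusted p up to 0.188 without another array). With IL-7, Bnip3 lost it without IL-7 array 1 or 2 (adjusted p = 0.079 and 0.0797), Higd1a without IL-7 array 1 or 2 (0.0596 and 0.0579) and Vegfa without media control array 3 or IL-7 array 1 or 2 (0.0796, 0.0592 and 0.0956). With IL-21, Bnip3 lost it without IL-21 array 1 or 2 (adjusted p = 0.0613 and 0.0512), P4ha2 without IL-21 array 1 (0.0575) and Vegfa without media control array 3 or IL-21 array 2 or 3 (0.0791, 0.0512 and 0.0514). The calls of Hk2, Bnip3, P4ha2, Vegfa and Higd1a with IL-2 and with IL-4 held without any single array.

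**Figure D4:**
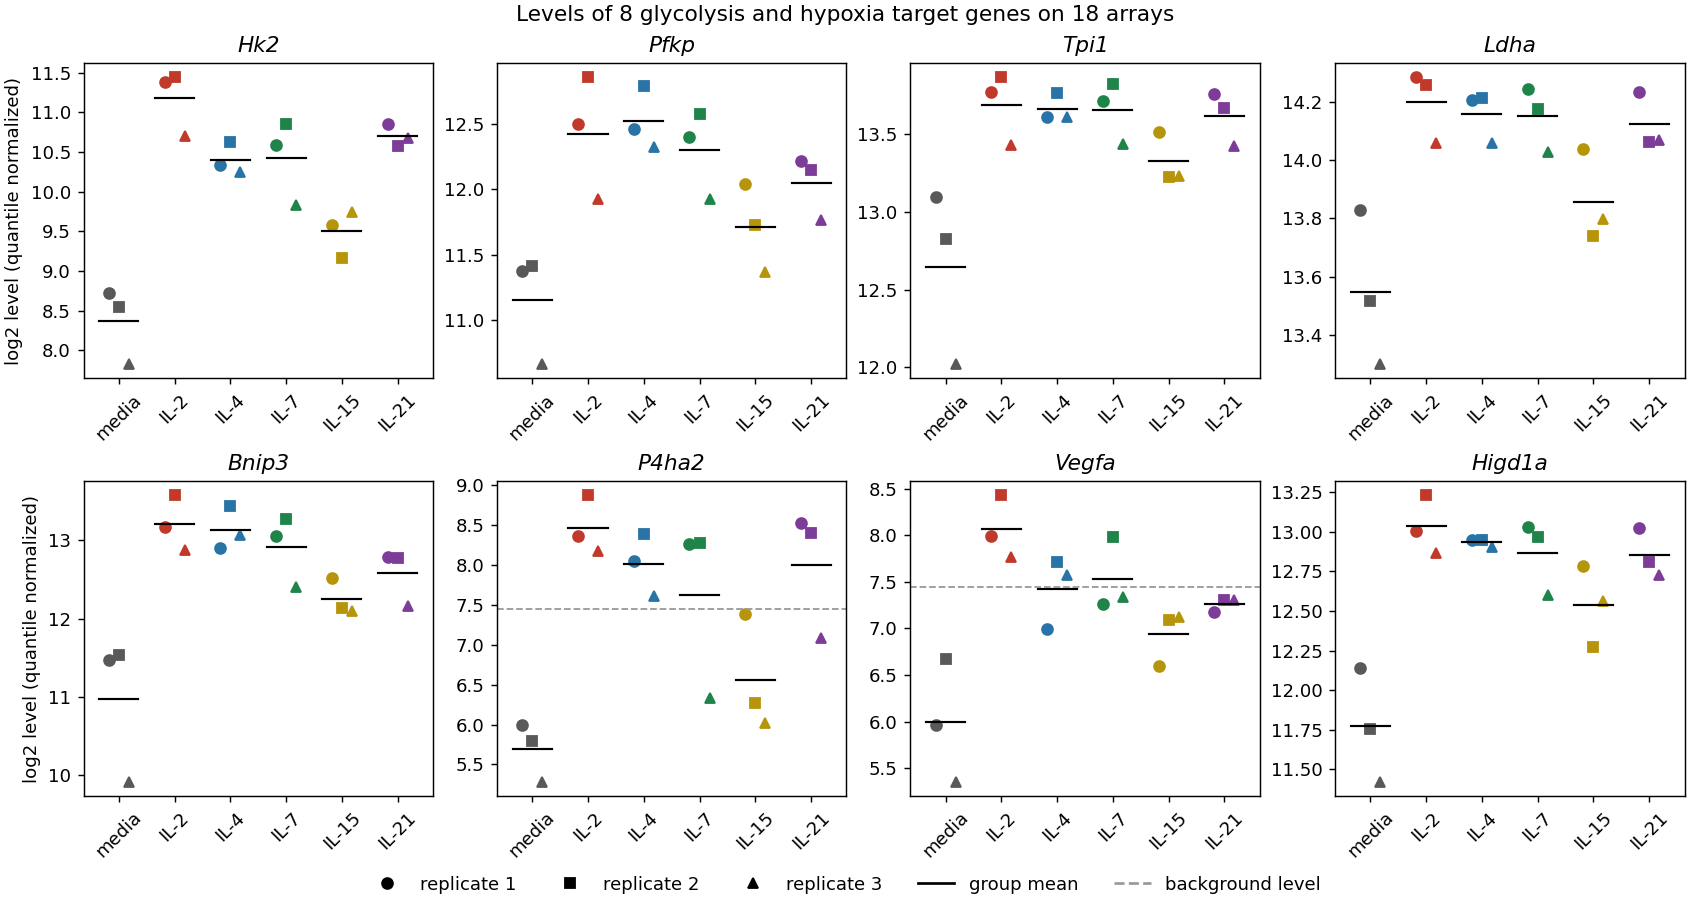
Log2 level after quantile normalization (vertical axis, its range set per panel) of 8 genes on each array, by group (horizontal axis). Replicate 1 is a circle, replicate 2 a square and replicate 3 a triangle, bars are group means, and the dashed line is the background level of 7.44 where it falls in the panel. The Hk2 arrays of all cytokines lie above 9 and those of media control below 8.8, and the P4ha2 arrays of media control lie below the dashed line.

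Reference promoters of several genes that rose hold the letters of the hypoxia response element core. They are shown because HIF is known to bind this core in several of these genes. The 4 shown are a hexokinase, a lactate dehydrogenase and 2 hypoxia targets, a mitophagy gene and a prolyl hydroxylase, and all 4 windows hold ACGTG. Not every gene that rose does. The Tpi1 window holds neither ACGTG nor GCGTG, and that of Pfkp holds GCGTG only. Each window runs 5′ to 3′ on the strand of the gene from 250 bases before its RefSeq start to 50 after it, in build GRCm38.p6, and capitals mark every ACGTG and GCGTG on either strand (CACGT and CACGC are their reverse complements). The windows are chr6:82774405-82774704 on the minus strand for Hk2, chr7:46845554-46845853 on the plus strand for the first of 2 starts of Ldha, chr7:138909457-138909756 on the minus strand for Bnip3 and chr11:54100674-54100973 on the plus strand for P4ha2.
Hk2: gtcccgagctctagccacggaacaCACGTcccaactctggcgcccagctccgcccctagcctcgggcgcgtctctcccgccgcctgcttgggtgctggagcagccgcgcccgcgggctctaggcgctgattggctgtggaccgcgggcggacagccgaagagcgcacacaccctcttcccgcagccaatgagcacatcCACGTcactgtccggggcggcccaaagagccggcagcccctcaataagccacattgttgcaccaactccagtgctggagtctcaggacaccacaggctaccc
Ldha: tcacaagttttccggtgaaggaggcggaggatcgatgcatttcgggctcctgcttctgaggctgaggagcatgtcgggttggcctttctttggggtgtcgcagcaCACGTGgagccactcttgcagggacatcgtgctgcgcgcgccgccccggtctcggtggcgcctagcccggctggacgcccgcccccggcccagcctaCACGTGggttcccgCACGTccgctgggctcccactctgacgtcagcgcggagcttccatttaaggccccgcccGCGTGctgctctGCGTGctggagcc
Bnip3: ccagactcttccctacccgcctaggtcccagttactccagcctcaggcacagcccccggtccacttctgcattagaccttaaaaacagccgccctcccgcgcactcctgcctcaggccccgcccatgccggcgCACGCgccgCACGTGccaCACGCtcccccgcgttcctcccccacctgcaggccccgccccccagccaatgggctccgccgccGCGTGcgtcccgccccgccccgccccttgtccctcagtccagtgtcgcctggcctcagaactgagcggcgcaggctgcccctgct
P4ha2: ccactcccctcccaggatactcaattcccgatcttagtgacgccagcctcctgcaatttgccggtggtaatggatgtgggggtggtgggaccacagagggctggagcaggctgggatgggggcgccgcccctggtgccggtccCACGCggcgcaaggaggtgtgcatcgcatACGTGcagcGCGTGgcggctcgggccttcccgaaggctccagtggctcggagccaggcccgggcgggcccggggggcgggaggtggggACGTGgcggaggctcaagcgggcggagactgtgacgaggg
The Hk2 window holds 2 ACGTG and no GCGTG, the Ldha window 5 and 2, the Bnip3 window 2 and 3, and the P4ha2 window 2 and 2, where each CACGTG, the E-box that MYC and related factors bind, counts as an ACGTG on both strands. Ldha holds 2 such E-boxes and Bnip3 holds 1. The window of the other Ldha start, not printed, holds no ACGTG and 2 GCGTG.

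Promoter windows were at hand for 32 of the 34 genes of the list, with 47 windows in all. At least 1 window held ACGTG for 20 of these 32 genes, among them 8 of 8 hypoxia targets, 5 of 9 genes of upper and 5 of 7 of lower glycolysis and 1 of 6 pentose phosphate genes. For GCGTG it was 25 of the 32, among them 7 of 8 hypoxia targets, 5 of 9 genes of upper and 5 of 7 of lower glycolysis and 6 of 6 pentose phosphate genes, so the order of the roles differed between the motifs. Counted by window, 48.9% held ACGTG against 19.6% of all 32851 windows of the table, 63.8% held GCGTG against 32.4%, and 8.51% held CACGTG against 7.15%. The members' windows were richer in CG, with a median of 21 CG dinucleotides against 7 in all windows, and each of the 3 motifs holds a CG. A match of letters is a description of the reference sequence and not a bound site, and the part of base composition in these shares was not tested.

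The cytokines were also compared with each other. Without the block 3 members differed between IL-2 and IL-15 (8.6% of all genes did), 1 between IL-4 and IL-15 (3.64%), 1 between IL-4 and IL-21 (3.81%) and 1 between IL-15 and IL-21 (3.54%). None differed between IL-2 and IL-4 (2.07% of all genes), IL-2 and IL-7 (1.42%), IL-2 and IL-21 (6.58%), IL-4 and IL-7 (1.34%), IL-7 and IL-15 (0.011%) or IL-7 and IL-21 (2.24%), while at an unadjusted p under 0.05 in limma 2, 1, 2, 1, 4 and 0 members did in that order, where 10.5%, 11%, 17.8%, 6.91%, 4.44% and 9.84% of all genes did. With the block 15 members differed between IL-2 and IL-15 (22.4% of all genes), 12 between IL-4 and IL-15 (14.1%), 7 between IL-15 and IL-21 (12.6%), 5 between IL-2 and IL-21 (21.4%), 3 between IL-4 and IL-21 (11.7%), 2 between IL-2 and IL-7 (11.1%), 1 between IL-2 and IL-4 (10.6%), 1 between IL-7 and IL-21 (8.89%), and 0 between IL-4 and IL-7 (5.18%) and between IL-7 and IL-15 (0.335%). With the block the members' share was larger than that of all genes in 3 of the 10 comparisons. These were those of IL-15 with each other cytokine but IL-7, and the share was smaller in the other 7. Counts were small among the 7 too. Between IL-7 and IL-15, 0 of 30 cannot be told from 0.335%, and between IL-4 and IL-21, 3 of 30 lay near 11.7%. No direction of the members' share is read from these 7. Without the block, 3 of 30 between IL-2 and IL-15 lay near 8.6%, and 1 of 30 lay near 3.64%, 3.81% and 3.54%. With counts this small no direction of the members' share is read from the fit without the block.

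By group means the order for Hk2 was IL-2, IL-21, IL-7, IL-4, IL-15 and media control. Hk2 was higher under IL-2 than under IL-15 by 1.68 (SE 0.28, adjusted p = 0.00148) and higher with IL-21 than with IL-15 by 1.21 (adjusted p = 0.0228), and with the block also higher with IL-2 than with IL-4 by 0.78 (adjusted p = 0.0445) and with IL-4 than with IL-15 by 0.90 (adjusted p = 0.0173). The neighbours IL-2 and IL-21, IL-21 and IL-7, and IL-7 and IL-4 did not differ beyond their spread in either fit. P4ha2 was at least 2.04-fold higher under IL-2 than under IL-15 (adjusted p = 0.026) and Vegfa at least 1.54-fold (adjusted p = 0.0265), with all IL-15 arrays of both below background. Vegfa was also at least 1.54-fold higher under IL-2 than under IL-21 with the block only (adjusted p = 0.0137), and Aldoc was lower by 1.05 on the log2 scale in the same comparison (change -1.05, adjusted p = 0.00104 with the block). Hk2 between IL-2 and IL-15 kept its call without any single array. Between IL-15 and IL-21 it lost it without IL-15 array 1 or 2 or IL-21 array 1, 2 or 3 (adjusted p = 0.06, 0.125, 0.106, 0.0538 and 0.0635), P4ha2 between IL-2 and IL-15 without IL-2 array 1 or 2 or IL-15 array 2 or 3 (adjusted p = 0.0759, 0.0975, 0.129 and 0.0715), and Vegfa without IL-2 array 1 or 2 or IL-15 array 1 or 2 (adjusted p = 0.0763, 0.114, 0.116 and 0.073).

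Across the 6 groups 11 of the 30 members differed in the limma F test, where 13.9% of all genes did, and 27 with the block, where 35.7% did. The 11 were Hk2, Pfkp, Tpi1, Pgam1, Pkm, Ldha, Rpia, Bnip3, P4ha2, Vegfa and Higd1a. With the block Hk1, Ldhb and Pgls alone did not pass (adjusted p = 0.686, 0.113 and 0.427).

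IL-15 was the cytokine with the lowest mean for 21 of the 30 members, and for 24.7% of all genes and 26.4% of the 7617 genes above background. IL-2 had the highest mean for 11 members, IL-4 for 9, IL-21 for 5, IL-7 for 4 and IL-15 for 1, where these cytokines were highest for 28.0%, 18.6%, 21.3%, 10.6% and 21.5% of all genes in that order. With IL-15 the change against media control was positive for 27 of the 30 members, and 25 were higher in 3 of 3 replicates. The median change over all genes with IL-15 was -0.01, but shares of all genes by sign or by replicate are not given here. These 2 counts therefore have no measure beside them. Of the 30, 9 had an unadjusted p under 0.05 in limma and 22 with the block, where 390 and 1566 of all genes did, 2.14% and 8.61%. None of them passed after adjustment over all genes in either fit (lowest adjusted p over the members 1 and 0.158). The replicates of IL-15 were also the closest to each other, with means over the 30 members of 11.13, 11.06 and 10.90, between media control at 10.68, 10.75 and 10.18 and IL-2 at 11.37, 11.74 and 11.12.

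**Figure D5:**
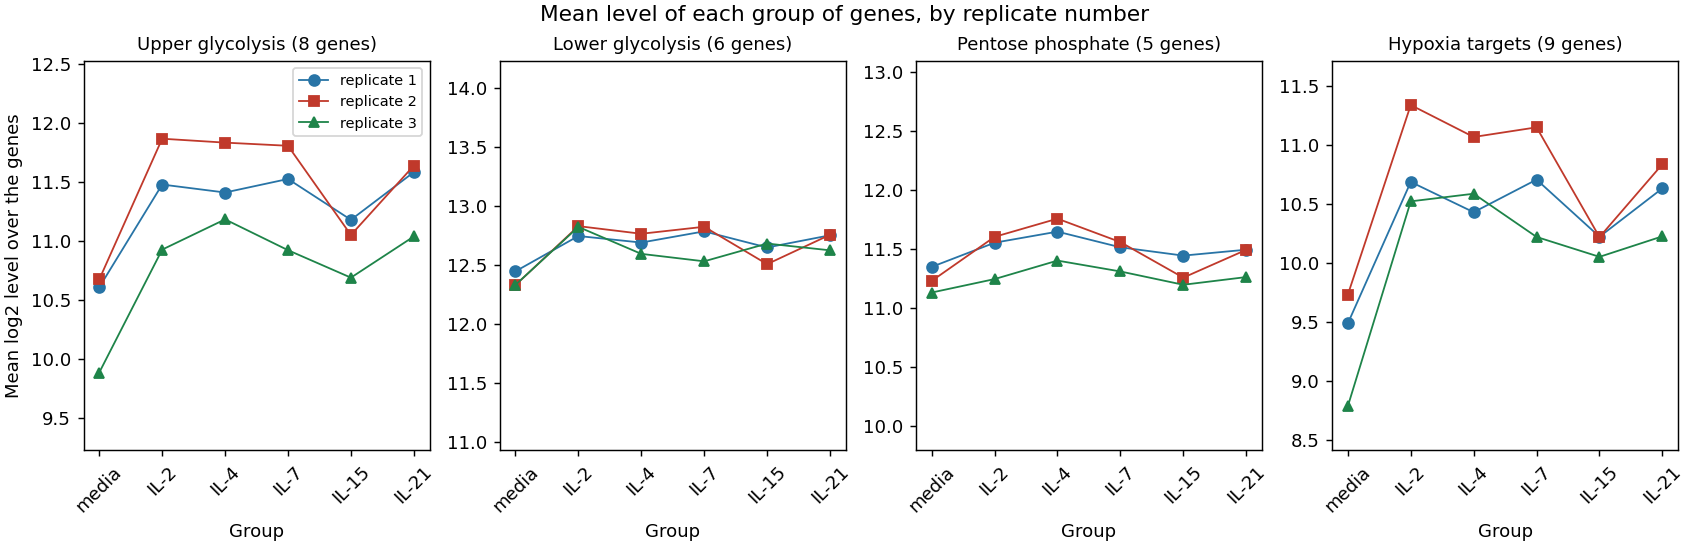
Mean log2 level over the measured genes of each role (vertical axis, each panel spans the same range of log2 units) by group (horizontal axis), with lines joining arrays of the same replicate number. Hypoxia targets of replicate 3 go from 8.79 in media control to 10.52 under IL-2 and 10.05 under IL-15, and the pentose phosphate genes stay between 11.13 and 11.76.

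The mean over the 9 hypoxia targets was 9.49, 9.73 and 8.79 in media control, 10.69, 11.34 and 10.52 under IL-2, and 10.22, 10.22 and 10.05 under IL-15. For upper glycolysis it was 10.60, 10.67 and 9.88 in media control and 11.48, 11.86 and 10.92 under IL-2. For lower glycolysis the mean was 12.45, 12.33 and 12.33 in media control and 12.75, 12.83 and 12.83 under IL-2. Ldhb, high on the arrays of lower scale, raised replicate 3 there, and without it the mean over the other 5 genes was 13.37, 13.19 and 12.96 in media control and 13.78, 13.86 and 13.59 under IL-2. Each of these 5 genes was lowest on replicate 3 of both groups.

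Further genes of these pathways were counted from lists made beside the 34, also with earlier results of these data known. Of 20 measured other genes of glycolysis and glucose or lactate transport, 6 rose with IL-2, 4 under IL-4, 1 under IL-7, 0 under IL-15 and 5 under IL-21, and 1 fell with IL-4. With the block 8, 10, 7, 0 and 10 rose and 1, 2, 0, 0 and 2 fell. For this list and those that follow, shares of all genes that fell with the block are not given here. The glucose transporter Slc2a1 (GLUT1) rose with each of the 4, by 1.83, 1.73, 1.61 and 1.85 (SE 0.29, adjusted p = 5.19e-04, 0.00152, 0.0135 and 0.00102). The lactate exporter Slc16a3 rose by 1.57 under IL-2, 1.63 under IL-4 and 1.78 under IL-21 (SE 0.38), while the monocarboxylate transporter Slc16a1 rose by 1.14 under IL-2 (SE 0.27, adjusted p = 0.00859) and had changes of 0.67 to 0.87 under IL-4, IL-7 and IL-21 that passed with the block only. The gene that fell without the block was the galactose mutarotase Galm, at least 1.07-fold (adjusted p = 1.68e-04).

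Of 29 measured other hypoxia targets, 10 rose and 1 fell with IL-2, and 7, 7, 0 and 6 rose with the others. With the block 14 rose and 3 fell with IL-2, and 16, 14, 0 and 15 rose with the others. The HIF prolyl hydroxylase Egln3 rose by 2.91 under IL-2, 2.37 under IL-4, 2.05 under IL-7 and 2.27 under IL-21 (SE 0.29). The mitochondrial adenylate kinase Ak4 rose by 2.36, 2.12, 2.20 and 1.75 (SE 0.27), and the endoplasmic reticulum oxidase Ero1a by 2.29, 1.70, 1.61 and 1.88 (SE 0.30) in the same order. Of 11 measured genes of the HIF pathway itself 1 rose with IL-2, 1 under IL-4 and 1 under IL-21, and with the block 3, 3, 1, 0 and 4 rose and 1 fell with IL-2 and with IL-4. Epas1, which encodes the alpha subunit of HIF-2, rose with IL-4 from a mean of 7.10 to 11.95, a measured difference of 4.85 (SE 0.57, adjusted p = 8.76e-05) whose size is not exact, since control arrays 1 and 3 were below background at 7.30 and 6.39 and array 2 was at 7.61. Cul2, a ligase scaffold that works with VHL, rose by 1.01 under IL-2.

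Of 11 measured genes that lead pyruvate into the mitochondria, 5 rose with IL-2, 1 under IL-4, 1 under IL-7, 0 under IL-15 and 2 under IL-21, and 1 fell with IL-4 and 1 under IL-21. With the block 5, 2, 3, 0 and 2 rose and 1, 2, 1, 0 and 2 fell. The pyruvate dehydrogenase phosphatase Pdp2, below background on all control arrays, rose at least 1.17-fold to 1.26-fold with each of the 4. The pyruvate dehydrogenase subunit Pdha1 was the one that fell without the block, by 0.43 under IL-4 and 0.39 under IL-21 on the log2 scale (changes -0.43 and -0.39, adjusted p = 0.0201 and 0.0429). Of 7 measured genes of gluconeogenesis 2 rose with IL-2, pyruvate carboxylase (Pcx) at least 3.13-fold (adjusted p = 5.05e-04) and Pck2 by 0.97 (SE 0.22, adjusted p = 0.00645), and with the block 3, 2, 2, 0 and 1 rose and 1 fell with IL-7 and with IL-21. Of 8 other pentose phosphate genes Prps1, which makes the activated ribose for nucleotides, rose by 0.81 under IL-2 and 0.95 under IL-4, and with the block 2, 1, 1, 0 and 2 of the 8 rose and 1 fell with IL-7.

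Genes listed as markers of other cells changed too, not all in 1 direction within a list. The authors counted granzyme K (Gzmk) among cytotoxic effector genes that IL-21 raised in these CD8 T cells. No cell type is read from its rise or from that of Batf3. Whether other cells in the cultures had a part in either was not tested. The mean over 9 myeloid markers was 5.43 to 6.70 in media control, 4.94 to 5.33 under IL-2, 5.01 to 5.49 under IL-4, 5.05 to 5.64 under IL-7, 5.06 to 6.15 under IL-15 and 5.22 to 6.23 under IL-21. Lyz2, the only one of the 9 above background on average, had means of 9.34 in media control and 6.42 under IL-2, and Cd68 fell at least 1.43-fold with IL-2 (adjusted p = 0.0286). With the block 3, 3, 4, 0 and 2 myeloid markers fell with the 5 cytokines and 1 rose with IL-21. Of the 9 CD8 T cell markers 6 fell with IL-2, 3 under IL-4, 1 under IL-7, 0 under IL-15 and 1 under IL-21, and the mean over the 9 was 12.19 to 12.52 in media control and 11.46 to 11.82 under IL-2. With the block 7, 6, 5, 0 and 3 of these fell and 1 rose with IL-4 and with IL-21. Without the block 8.0%, 5.1%, 0.747%, 0.0% and 3.29% of all genes fell with the 5 cytokines. Shares of all genes that fell with the block are not given here, for these or the other markers. Of the 9 B cell markers 3, 0, 2, 0 and 1 fell with the 5 cytokines, from levels below or near background, and 3, 1, 3, 0 and 3 with the block. Of the 7 dendritic cell markers 1 was above background on average, Batf3, a transcription factor gene, which rose by 3.78 under IL-2, 2.22 under IL-4, 1.71 under IL-7 and 2.83 under IL-21 (SE 0.32, adjusted p = 3.28e-06, 3.77e-04, 0.0135 and 4.75e-05). Itgax fell with IL-2, from a mean of 6.86 to 5.43, both below background (adjusted p = 0.00979), and with the block 1 dendritic cell marker fell with each of IL-2, IL-4 and IL-7. Of the 5 NK cell markers, none above background on average, the granzyme gene Gzmk rose at least 3.70-fold with IL-21 (adjusted p = 4.46e-05) and fell with IL-2 on arrays all below background (adjusted p = 0.0459), and with the block 2, 3 and 1 fell with IL-2, IL-4 and IL-7. The 4 CD4 T cell and 6 red cell markers had none above background on average, and none of them passed in either fit, while at an unadjusted p under 0.05 in limma 1 CD4 T cell marker differed with IL-7 and 1 red cell marker with IL-21. The part of these shifts in the members' changes was not tested. In RNA of whole cultures a change in the share of cells that express a gene and a change of its RNA per cell cannot be told apart.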

How the data were processed

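RNA of 18 cultures (6 groups of 3) was labelled by a 3' in vitro transcription kit and hybridised to Affymetrix mouse arrays. The deposited values are log2 levels of 45101 probe sets, which the authors made by RMA in Affymetrix Expression Console. Columns of the 18 arrays were quantile normalized again because 3 of them lay on a lower scale. Probe sets were named from GEO's platform annotation: 34958 had 1 gene, 932 several and 9211 were not listed. For each of 18194 genes the probe set of 1 symbol with the highest mean was used. The number of arrays limits the precision.

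One limma fit (3.58.1, R 4.3.3) over all 18 arrays with a mean per group gave each of the 15 comparisons, with Benjamini-Hochberg adjustment over all genes and a threshold of 0.05. Scripts were tested on simulated data. Groups came from the labels. Replicate numbers paired the arrays: deviations from group means correlated by 0.582 or more in all 45 pairs of arrays with the same number and by at most 0.237 in the 90 with different numbers. A fit with the number as a block was therefore run. Where nothing says that replicates are separate animals, p-values measure the spread between these samples. The extraction kit changed with replicate 3 and was also tried as a term.

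The members and all gene lists were chosen with earlier results of these data known. Named genes are the members, and from the other lists up to 4 past the threshold with the largest changes, with Il2ra and Cish as a check. Alternatives were the scale, the filter, the probe set rule, the moderation, the groups in the fit and each array or replicate left out. Promoters were read from a RefSeq table (GRCm38.p6).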

Additional observations from a re-analysis of the deposited data

How the results depend on the processing

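Without renewed normalization, on the values as deposited, 1, 0, 0 and 1 members rose with IL-2, IL-4, IL-7 and IL-21, 0 differed between IL-2 and IL-15, IL-4 and IL-15, IL-4 and IL-21, IL-15 and IL-21 or among the 6 groups, and the median changes with IL-4, IL-7 and IL-21 were 1.14, 1.03 and 1.08. With the replicate block 25, 24, 24 and 22 rose, 1, 2, 15 and 5 differed between IL-2 and the other cytokines in numerical order, 12 and 3 between IL-4 and IL-15 and IL-21, 1 between IL-7 and IL-21, 7 between IL-15 and IL-21 and 27 among the 6 groups, and no call was lost. With the extraction kit as a term 21, 22, 21 and 21 rose, 9 and 2 differed between IL-2 and IL-15 and IL-21, 10 and 2 between IL-4 and IL-15 and IL-21, 3 between IL-15 and IL-21 and 24 among the groups. In fits of the 2 groups compared, with fewer samples, 7, 6, 1 and 4 rose, 1 differed between IL-2 and IL-15 and 0 between IL-4 and IL-15. Apart from the fit with the replicate block, shares of all genes in these alternatives are not given here.

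The block within the RNeasy arrays alone was chosen after seeing the data. There 26, 25, 25 and 23 rose and 1 was lower (Ldhb) with each of IL-2, IL-4 and also IL-21, 3, 6, 19 and 8 differed between IL-2 and the other cytokines in numerical order, 1, 15 and 3 between IL-4 and the later ones, 7 and 1 between IL-7 and IL-15 and IL-21, 7 between IL-15 and IL-21 and 28 among the groups. Without the 3 arrays of lower scale 1 was lower with IL-21 (Ldhb), and the median change over all members with IL-21 was 0.46. There 1, 5 and 1 differed between IL-2 and IL-4, IL-15 and IL-21 and 2 between IL-4 and IL-15. With the mean of all probe sets 1 was lower with IL-21 (Ldhb), and the median change over all members with IL-21 was 0.51. In that setting 2 differed between IL-15 and IL-21. With genes above background only, 1 differed between IL-2 and IL-21, without _s_at, _x_at and control probe sets 2 between IL-4 and IL-15, and with medians aligned 0 between IL-15 and IL-21. The cause was not tested.

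With an array or replicate number left out, members that rose ranged from 5 to 20 with IL-2, 3 to 19 with IL-4, 0 to 13 with IL-7 and 2 to 15 with IL-21, and those lower from 0 to 1 with IL-21, IL-2 or IL-4. Differing members ranged from 0 to 1 between IL-2 and IL-4, 0 to 10 between IL-2 and IL-15, 0 to 2 between IL-2 and IL-21, 0 to 7 between IL-4 and IL-15, 0 to 1 between IL-4 and IL-21, 0 to 1 between IL-7 and IL-15, 0 to 4 between IL-15 and IL-21 and 2 to 18 among the groups. Median changes ranged from 0.47 to 0.75 with IL-7, 0.22 to 0.49 with IL-15 and 0.46 to 0.79 with IL-21.

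Signs turned only for changes that had not passed. As deposited, Pdk1, Rpia and Pgls with IL-21 were 0.43, 0.47 and 0.51 and Rpia and Pgls with IL-15 0.030 and 0.036. With medians aligned Rpia was 0.036 with IL-15 and 0.037 with IL-21, and Pgls 0.041 and 0.068. Within the RNeasy arrays Pdk1 with IL-4 was -0.030, Rpia 0.048 with IL-15 and 0.14 with IL-21, and Pgls 0.042 with IL-15. Without the 3 arrays Pdk1 with IL-4 was -0.12, Tkt with IL-21 -0.020, Pgls with IL-7 -0.011 and with IL-15 0.042, and Rpia 0.048 with IL-15 and 0.10 with IL-21. With the mean of probe sets Ldhb with IL-15 was 0.042. With arrays left out, ranges that crossed 0 were -0.045 to 0.40 (Hk1, IL-4), -0.73 to 0.15 and -0.48 to 0.34 (Ldhb, IL-2 and IL-15), -0.48 to 0.17, -0.12 to 0.53 and -0.45 to 0.20 (Pdk1, IL-2, IL-4 and IL-21), -0.086 to 0.30 (Pgd, IL-15), -0.086 to 0.29 and -0.020 to 0.48 (Tkt, IL-15 and IL-21), -0.081 to 0.16 and -0.074 to 0.19 (Taldo1, IL-2 and IL-15), -0.14 to 0.13 and -0.16 to 0.14 (Rpia, IL-15 and IL-21), -0.20 to 0.0091, -0.011 to 0.16, -0.10 to 0.14 and -0.11 to 0.044 (Pgls, IL-2, IL-7, IL-15 and IL-21) and -0.15 to 0.81 (Ddit4, IL-15).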
